A study of Arabidopsis thaliana with 9 samples.

Results

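Seedlings of Arabidopsis thaliana that overexpress the microRNA gene MIR394A were compared with untreated seedlings of the wild-type strain Col-0, across all genes with a measurable transcript level. A gene entered the comparison if its FPKM was at least 1 in at least 3 of the 6 libraries. FPKM is a fragment count scaled by transcript length and sequencing depth. This rule kept 17358 of the 24331 genes with values. A gene that reaches this level in Col-0 libraries alone also passes, so the filter by itself keeps some genes that are low in the overexpressor.

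The overexpressor (MIR394A OE) and untreated Col-0 had 3 libraries each. Another group, Col-0 grown with 2 µM Brz, also had 3 libraries. It enters only through the shared estimate of spread and through values set beside the called genes. RNA came from whole seedlings at an age of 5 days, after 4 days of cold at 4 °C and growth at 22 °C in days of 16 h light and 8 h darkness. The labels give neither the promoter behind the overexpression nor the number of lines, nor whether replicates were grown separately. What the p-values set a difference against is thus the spread between libraries within each group, some or all of which may be technical. That spread was estimated over all 9 libraries together, those with Brz included. Because whole seedlings were used, fewer cells of a type and less RNA per cell cannot be told apart.

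A microRNA is a short RNA that guides an ARGONAUTE protein to transcripts with a complementary site, which are then cut or translated less. In plants, miR394 is known for its site in LCR (LEAF CURLING RESPONSIVENESS), an F-box protein that acts in leaf shape and in the stem cell niche of the shoot tip. By its title, the study asked how miR394 bears on the response to brassinosteroid and on elongation of the hypocotyl, the seedling stem. Brassinosteroids are steroid hormones that promote cell elongation through the receptor BRI1, the kinase BIN2 and the transcription factors BZR1 and BES1.

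The sequences of the microRNA and of its possible sites are shown because a microRNA finds its transcripts by such sites. Whether the overexpression acted through them in these seedlings was not tested. They were read from the RefSeq genome, build TAIR10.1. Bases 2 to 8 of a microRNA, its seed, are in capitals. In the sites, capitals mark mismatches or wobble pairs to the microRNA.
miR394a, chr1:7058207-7058226, + strand: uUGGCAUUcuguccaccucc
miR394b-5p, chr1:28568821-28568840, + strand: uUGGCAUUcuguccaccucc
miR394b-3p, chr1:28568897-28568917, + strand: aGGUGGGCauacugccaauag
LCR site, chr1:9497605-9497624, + strand: ggaggtTgacagaatgccaa
AT4G20430 site, chr4:11018687-11018706, - strand: gCaggtggacaAaatgcTaa
AT1G40104 site, chr1:15083409-15083537, + strand, across an intron: gAaggtTgacagaaAgccaa
miR394a and miR394b-5p have the same sequence, so they share every site. A search of all annotated transcripts at a mismatch score of at most 4 found sites in 3 genes. The LCR site scored 1 and lies in the coding sequence, in exon 2 of 2. The site in AT4G20430 scored 4 and lies in the coding sequence, in exon 9 of 11. The site in AT1G40104 also scored 4, and that locus has no values.

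LCR did not pass the test in the overexpressor. Its transcript level measured 27.2, 27.9 and 24.8 FPKM in MIR394A OE replicates 1 to 3, against 24.2, 21.8 and 28.9 FPKM in Col-0. The groups overlapped, and the log2 fold change was 0.10 ± 0.14 (SE, n = 3 each), with an adjusted p of 1 in limma. AT4G20430 measured 2.53, 1.76 and 1.54 FPKM in MIR394A OE, against 1.74, 2.54 and 2.07 FPKM in Col-0, and the groups overlapped as well. Transcripts of MIR394A and MIR394B themselves were not analysed here, and no value of these libraries therefore checks the overexpression. Of 10 genes for making and using microRNAs, such as the nuclease gene DCL1 and the effector AGO1, none was called, and none had groups that did not overlap.

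The libraries did not group by genotype along the main axes of variation. On a principal component analysis of the 6 libraries, the first component (48.8% of the variance) set MIR394A OE replicate 3, at 31.4, and Col-0 replicate 2, at 28.5, apart from the other 4, at -24.2 to -4.17. The second component, with 24.8%, had MIR394A OE replicate 1 at 21.7 and Col-0 replicate 1 at -31.4 as its ends. Depth fitted from the steps of low FPKM values was 21.7 to 21.8 M reads in MIR394A OE and 21.7 to 21.9 M in Col-0. Shoot markers summed to 36258 to 44034 FPKM in MIR394A OE and 37262 to 44712 FPKM in Col-0. Seed and flower markers stayed under 2 FPKM in sum in every library.

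**Figure D1:**
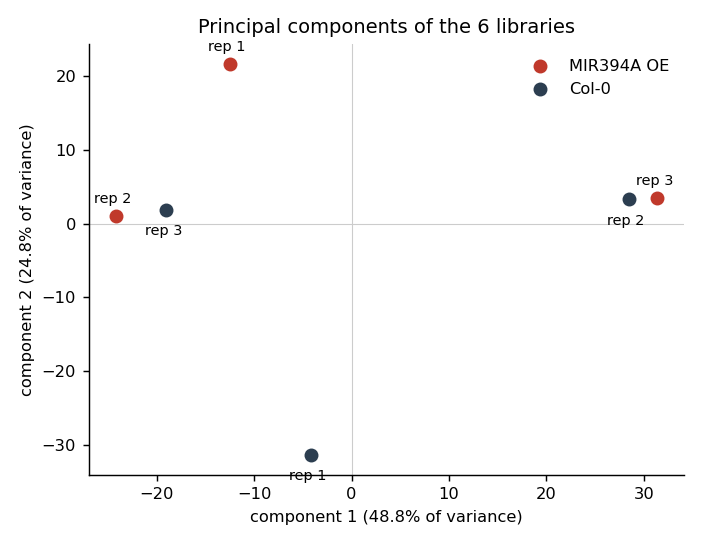
Principal component scores of the 6 libraries on log2(FPKM + 1), with component 1 (48.8% of variance) across and component 2 (24.8%) up. MIR394A OE replicate 3 and Col-0 replicate 2 lie together on the right, at 31.4 and 28.5, and the other 4 libraries lie to the left of 0.

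Few genes differed beyond the spread between libraries. Tested in limma on log2(FPKM + 1), 6 genes fell in the overexpressor at an adjusted p under 0.05, which is 0.0346% of the genes tested. No gene rose, which is 0% of the genes tested. At an unadjusted p under 0.05, 196 genes were lower (1.13%) and 192 higher (1.11%). The median log2 fold change of all genes was -0.01. Without Col-0 replicate 1, and likewise without Col-0 replicate 3, 3 genes were called. Those were QQS, MRD1 and AT1G75945 in both cases. With the weights that limma gives each library by its spread, 486 genes were called lower and 552 higher. There MIR394A OE replicates 1 to 3 had weights of 5.54, 0.958 and 0.294, and Col-0 replicates 1 to 3 had 3, 0.548 and 0.643. The lowest weight, 0.146, was that of Brz replicate 1.

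**Figure D2:**
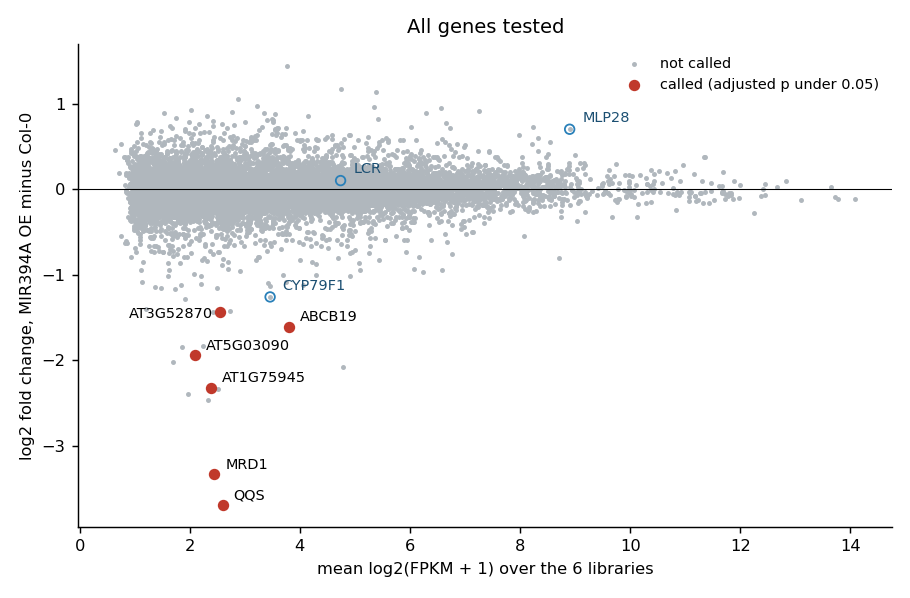
Each point is 1 of the 17358 genes tested, with its mean log2(FPKM + 1) over the 6 libraries across and its log2 fold change, MIR394A OE minus Col-0, up. The 6 called genes (red) all lie below -1.4. Open blue circles mark LCR, which at 0.10 lies within the cloud of the other genes, and the uncalled CYP79F1 and MLP28.

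QQS and MRD1 fell most. QQS (AT3G30720, TAIR10.1 chr3:12349047-12349933, + strand) encodes a small protein and is known for a role in starch and nitrogen allocation. It measured 0.64, 0.30 and 1.27 FPKM in MIR394A OE, against 22.1, 23.1 and 17.5 FPKM in Col-0. All 3 overexpressor libraries were far below every Col-0 library. The means were 0.737 ± 0.492 and 20.9 ± 2.97 FPKM (SD, n = 3 each), and the log2 fold change was -3.69 ± 0.22 (SE) with an adjusted p of 8.4e-06. Col-0 with Brz measured 30.7, 23.8 and 32.8 FPKM, none of them below the highest untreated Col-0 library.

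MRD1 (AT1G53480, chr1:19963047-19964712, - strand) is named for its lower level in a mutant that accumulates methionine. It measured 0.42, 0.83 and 0.97 FPKM in MIR394A OE, against 18.7, 13.3 and 17.6 FPKM in Col-0. The groups were far apart, at means of 0.740 ± 0.286 and 16.5 ± 2.82 FPKM (SD). The log2 fold change was -3.33 ± 0.20 with an adjusted p of 8.4e-06. MRD1 overlaps HEI10, a gene of meiotic crossover formation on the opposite strand, by 1446 bases, and 73.1% of its 30-base stretches are also in HEI10 transcripts. Whether the counting used strand is not given, so reads of this pair cannot be told apart. HEI10 measured 1.40, 0.60 and 1.08 FPKM in MIR394A OE, against 2.33, 2.17 and 1.40 FPKM in Col-0, and was not called. MRD1 also shares 82.7% of its stretches with AT1G07887, which has no values. The other 5 called genes shared no 30-base stretch with any other transcript.

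AT5G03090 carries the same annotation as MRD1, a protein responding to the mto1 mutation, but shares no 30-base stretch with it. This gene (chr5:725281-725962, + strand) measured 0.53, 2.32 and 1.07 FPKM in MIR394A OE, against 9.96, 5.16 and 7.82 FPKM in Col-0. The highest overexpressor library was below the lowest Col-0 library. The log2 fold change was -1.94 ± 0.28 with an adjusted p of 0.037. Without MIR394A OE replicate 1 or 3, or without Col-0 replicate 1 or 3, AT5G03090 was no longer called.

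AT1G75945 (chr1:28515245-28515916, - strand) encodes an uncharacterized protein. It measured 1.08, 1.95 and 1.08 FPKM in MIR394A OE, against 13.9, 11.3 and 7.65 FPKM in Col-0. The log2 fold change was -2.32 ± 0.23 with an adjusted p of 0.0017. In Col-0 with Brz it measured 14.5, 20.7 and 17.3 FPKM. Only the overexpressor was low for this gene.

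ABCB19 (AT3G28860, chr3:10870005-10877578, - strand) is a plasma membrane transporter that moves auxin out of cells, and is also known as a brassinosteroid exporter. It measured 6.36, 6.43 and 8.56 FPKM in MIR394A OE, against 23.1, 22.9 and 24.8 FPKM in Col-0. The groups did not overlap, at means of 7.12 ± 1.25 and 23.6 ± 1.07 FPKM (SD). The log2 fold change was -1.61 ± 0.21 with an adjusted p of 0.017. Among the called genes ABCB19 was the only one whose Brz libraries, at 13.6, 8.36 and 7.32 FPKM, were all below the Col-0 libraries as well.

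AT3G52870 (chr3:19593073-19595834, - strand) encodes a protein with a calmodulin-binding IQ motif. It measured 2.30, 2.25 and 3.24 FPKM in MIR394A OE, against 8.59, 9.35 and 8.12 FPKM in Col-0. The log2 fold change was -1.44 ± 0.19 with an adjusted p of 0.017. ABCB19 and AT3G52870 lost their calls when any single library other than MIR394A OE replicate 3 was left out, at adjusted p values of up to 0.14 over all alternatives. Their log2 fold changes stayed at -1.73 to -1.54 and -1.56 to -1.37 when a library was left out.

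**Figure D3:**
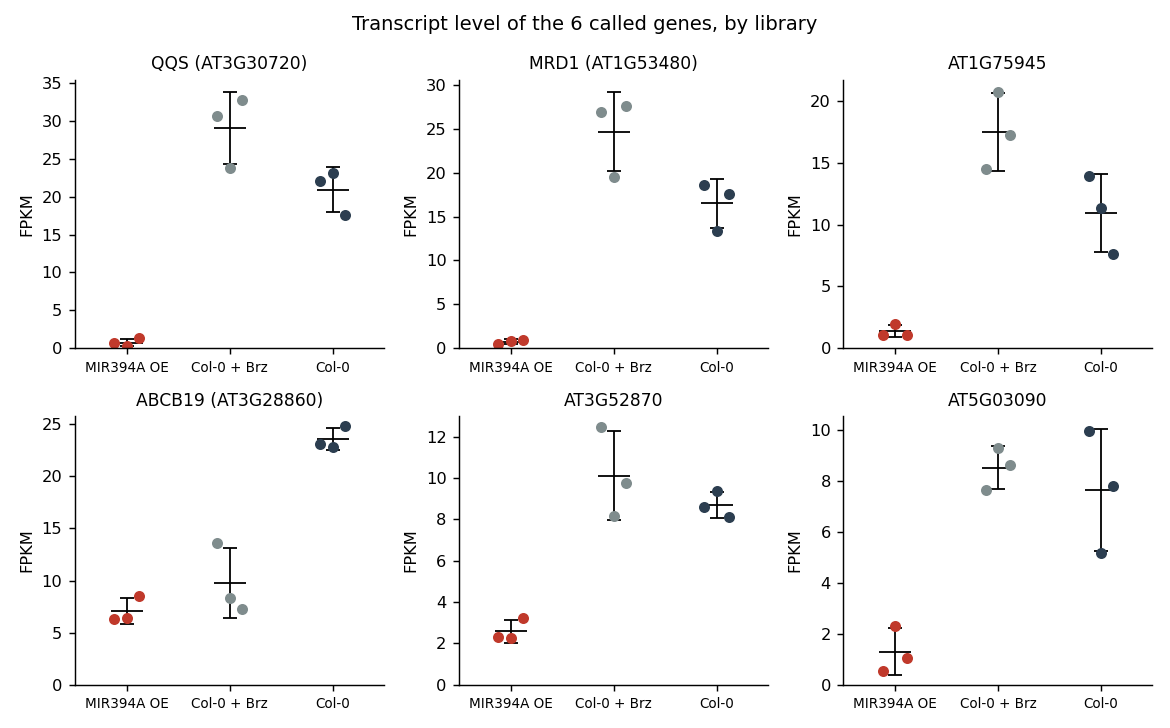
FPKM of the 6 called genes in MIR394A OE, Col-0 with Brz and untreated Col-0, with 1 point per library, a bar at the mean and whiskers of 1 SD (n = 3). In every panel the 3 MIR394A OE points lie below the 3 Col-0 points, and only for ABCB19 do all Brz points lie there too.

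None of the 9 nearest loci with values, on either side of the called genes, was called. GDU6, an amino acid export gene 2538 bases from QQS, measured 1.05, 0.70 and 0.87 FPKM in MIR394A OE, against 0.52, 1.31 and 1.39 FPKM in Col-0. SKP1, which encodes the subunit that links F-box proteins to a ubiquitin ligase, lies 602 bases from AT1G75945. It measured 142, 155 and 169 FPKM in MIR394A OE, against 153, 138 and 140 FPKM in Col-0. Next to ABCB19, the growth regulator gene PRE5 had a log2 fold change of 0.10 ± 0.20. AT3G52860, 304 bases from AT3G52870, had one of 0.03 ± 0.16.

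The promoter of QQS is shown because QQS had the largest change and because its start region holds a repeat. The window runs from 250 bases before to 50 bases after the annotated start, from RefSeq TAIR10.1. Capitals mark the pair of 36-base windows, in direct orientation, that match each other best.
QQS promoter, chr3:12348797-12349096, + strand: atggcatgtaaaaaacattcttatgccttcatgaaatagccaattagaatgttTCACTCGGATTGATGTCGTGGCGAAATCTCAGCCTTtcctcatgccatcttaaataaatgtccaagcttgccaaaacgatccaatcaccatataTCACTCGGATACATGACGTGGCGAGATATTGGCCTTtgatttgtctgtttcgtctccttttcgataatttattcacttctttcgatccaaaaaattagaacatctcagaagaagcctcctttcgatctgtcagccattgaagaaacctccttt
The windows match at 29 of 36 bases, and 1.91% of 24126 promoters of the same length hold a repeat at least as close. In the promoters of the other 5 called genes the best windows matched at 20 to 22 bases. Neither CGTGNG, with any base at N, nor CACGTG, the G-box, was in any of the 6 windows on either strand. CGTGNG includes the brassinosteroid response element bound by BZR1 but is broader than it. Over all promoters, 15.6% hold CGTGNG and 8.31% hold the G-box. The windows of ABCB19 and AT3G52870 held the TATA box letters TATAAA, which 51.8% of all promoters hold. A missing match says only that these letters are not in this window.

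Whether or not they passed the threshold, 486 genes were lower in every MIR394A OE library than in every Col-0 library (2.80%), and 517 were higher (2.98%). The extensin-like cell wall protein gene AT1G26250 measured 1.42, 1.56 and 1.57 FPKM in MIR394A OE, against 32.9, 2.65 and 4.77 FPKM in Col-0. AT1G26255, which overlaps it by 1609 bases on the opposite strand, measured 1.11, 1.10 and 1.22 FPKM in MIR394A OE, against 30.4, 5.39 and 7.12 FPKM in Col-0. Both were high in Col-0 replicate 1. Uncharacterized genes AT1G14453 and AT1G18975 and the EF-hand gene AT5G39670 had log2 fold changes of -2.34 ± 1.05, -1.84 ± 0.42 and -1.44 ± 0.40, none of them called. All 3 overlap another gene on the opposite strand.

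AT2G05230 and AT2G05250, both DNAJ-type chaperone genes, appeared on opposite sides. AT2G05230 measured 0, 0.49 and 1.77 FPKM in MIR394A OE, against 8.49, 4.34 and 4.48 FPKM in Col-0. AT2G05250 measured 11.5, 9.45 and 7.89 FPKM in MIR394A OE, against 1.49, 6.27 and 6.21 FPKM in Col-0. These copies share 97.9% of the 30-base stretches of AT2G05230, so their reads could be split either way. Their summed values were 11.5, 9.94 and 9.66 FPKM in MIR394A OE, against 9.98, 10.6 and 10.7 FPKM in Col-0, and those groups overlapped.

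On the higher side, MRN1, the marneral synthase of a root triterpene pathway, measured 45.1, 14.8 and 14.2 FPKM in MIR394A OE, against 2.87, 11.4 and 10.4 FPKM in Col-0. The wide gap came from MIR394A OE replicate 1 and Col-0 replicate 1, and the log2 fold change of 1.44 ± 0.46 was not called. ADS4, a fatty acid desaturase gene, measured 9.79, 7.29 and 7.75 FPKM in MIR394A OE, against 4.41, 3.63 and 3.84 FPKM in Col-0, with an adjusted p of 0.45. The glycine-rich protein gene AT2G05510 measured 100, 96.8 and 125 FPKM in MIR394A OE, against 46.4, 72.4 and 54.8 FPKM in Col-0, with an adjusted p of 0.46. The other genes of the 12 largest increases were AT4G38820, AT4G11320, CASP5, TIP2;3, AT1G72140, FLP1, AT2G18370 and CASP4, at 0.78 to 0.97 on the log2 scale. AT4G38820 overlaps AT4G38825, which also has values, on the opposite strand by 433 bases, so reads of these genes may be mixed.

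No gene that makes brassinosteroids passed the test. DWF4, which catalyses a rate-limiting hydroxylation, measured 3.89, 4.10 and 5.89 FPKM in MIR394A OE, against 4.14, 5.48 and 3.76 FPKM in Col-0. CPD, another cytochrome P450 of the pathway, measured 93.8, 119 and 93.0 FPKM in MIR394A OE, against 117, 102 and 113 FPKM in Col-0. Of 10 synthesis genes, all tested, none was called and none had groups that did not overlap. Their median log2 fold change was 0.05, beside -0.01 over all genes. The inactivating enzymes BAS1 and SOB7 had log2 fold changes of -0.21 ± 0.19 and -0.02 ± 0.23.

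No signalling gene passed the test either. BRI1 measured 47.0, 49.4 and 30.9 FPKM in MIR394A OE, against 40.1, 36.5 and 47.9 FPKM in Col-0. BIN2, the kinase that holds the pathway off, had a log2 fold change of -0.09 ± 0.14. BZR1 and BES1 had log2 fold changes of -0.08 ± 0.16 and 0.06 ± 0.13. Of 18 signalling genes 16 were tested, 0 were called, and 2 were lower without overlap, beside 2.80% of all genes. These were BEH2, a BZR1 relative, at -0.38 ± 0.16, and BKI1, an inhibitor of BRI1, at -0.17 ± 0.15. The median of the list was -0.04.

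Among 14 growth genes induced by brassinosteroid, 2 were lower and 2 higher without overlap, beside 2.80% and 2.98% of all genes, none was called, and the median was 0.02. XTH17, a cell wall xyloglucan enzyme, measured 85.7, 88.3 and 81.5 FPKM in MIR394A OE, against 56.5, 65.5 and 63.2 FPKM in Col-0. PRE1, a growth-promoting HLH protein, measured 10.45, 10.87 and 9.37 FPKM in MIR394A OE, against 8.33, 5.70 and 5.86 FPKM in Col-0. EXO, a growth protein of the cell wall, measured 101, 98.1 and 123 FPKM in MIR394A OE, against 125, 165 and 176 FPKM in Col-0. So the members with separate groups stood on both sides, and their adjusted p in limma was 1.

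Auxin transport held 1 called gene, ABCB19, among 16 tested, where 0.0346% of all genes were called lower. Without overlap, 2 of its genes were lower and 1 was higher, beside 2.80% and 2.98% of all genes. LAX3, an auxin influx carrier, was the 1 member higher without overlap, at 22.7, 21.7 and 17.1 FPKM in MIR394A OE, against 12.9, 12.9 and 14.2 FPKM in Col-0. Its log2 fold change was 0.57 ± 0.17 with an adjusted p of 1. PID, a kinase of auxin transport, was lower without overlap at -0.24 ± 0.16. ABCB1, a related auxin exporter, measured 20.6, 20.1 and 13.8 FPKM in MIR394A OE, against 17.5, 17.6 and 17.5 FPKM in Col-0.

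SAUR genes, whose small proteins promote cell expansion in response to auxin, lay mostly above Col-0 without passing the test. Of 19 members, all tested, 9 were higher without overlap, beside 2.98% of all genes, 0 were lower, and the median log2 fold change was 0.45. SAUR50 measured 58.13, 45.03 and 61.94 FPKM in MIR394A OE, against 36.3, 35.5 and 36.5 FPKM in Col-0, and shares no 30-base stretch with other members. SAUR20 measured 59.3, 47.9 and 65.1 FPKM in MIR394A OE, against 39.1, 42.7 and 31.2 FPKM in Col-0. SAUR19 to SAUR24 are related tandem genes, which share between 7.94% and 39.9% of their stretches with others of the list, so their values may not be independent readings. Adjusted p was 1 for each of these. Without MIR394A OE replicate 3 the median was 0.31.

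Expansin and XTH genes, which loosen the cell wall, had 5 of 18 tested members higher without overlap, beside 2.98% of all genes, 0 lower and a median of 0.07. EXPA5 measured 33.1, 29.9 and 23.7 FPKM in MIR394A OE, against 21.2, 20.6 and 18.1 FPKM in Col-0. EXPA4 measured 83.0, 77.9 and 79.7 FPKM in MIR394A OE, against 54.2, 62.3 and 71.4 FPKM in Col-0. Under median-ratio scaling, 2 of the 18 were higher without overlap, beside 745 of all 17358 genes.

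Aliphatic glucosinolate genes lay below Col-0 as a group, with no member called. Aliphatic glucosinolates are defence compounds made from chain-elongated methionine. Of 20 genes 17 were tested, and 10 were lower without overlap, beside 2.80% of all genes. All 17 had a negative log2 fold change, as had 9183 of all 17358 genes. Members of the same pathway measured in the same libraries are not independent readings. The median of the list was -0.43, or -0.28 without MIR394A OE replicate 3, beside -0.01 over all genes. CYP79F1, which starts the core pathway, measured 6.75, 6.56 and 5.13 FPKM in MIR394A OE, against 16.2, 16.9 and 15.2 FPKM in Col-0. Its log2 fold change was -1.26 ± 0.21, with an adjusted p of 0.16. CYP79F1 was called with a pseudocount of 5 and with library weights, under which 486 genes in all were called lower and 552 higher.

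The steps before and after CYP79F1 were on the same side. MAM1, which elongates the methionine chain, measured 35.4, 34.9 and 24.9 FPKM in MIR394A OE, against 61.2, 57.6 and 51.5 FPKM in Col-0. BCAT4, the entry aminotransferase, measured 17.4, 13.6 and 10.2 FPKM in MIR394A OE, against 29.0, 28.3 and 20.0 FPKM in Col-0. FMOGS-OX3, which oxidises the side chain, measured 3.99, 4.10 and 4.10 FPKM in MIR394A OE, against 7.73, 6.88 and 6.57 FPKM in Col-0. These 3 had adjusted p values of 0.71 to 1. MYB28, the main activator of the pathway, measured 21.4, 19.0 and 19.9 FPKM in MIR394A OE, against 22.9, 21.7 and 18.1 FPKM in Col-0, and its groups overlapped.

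Indole glucosinolate genes, for the tryptophan-derived compounds, had a median of 0.06 over 11 of 13 members tested. CYP79B2 and CYP79B3, which start that branch, were higher without overlap, at log2 fold changes of 0.38 ± 0.15 and 0.28 ± 0.13. Over all genes 2.98% were higher without overlap. No member was lower without overlap, beside 2.80% of all genes, and 5 of the 11 had a negative log2 fold change. The difference between the branches was not tested. ESP, a specifier protein that steers glucosinolate breakdown and was chosen after its values were seen, measured 3.06, 2.96 and 2.73 FPKM in MIR394A OE, against 0.79, 0.86 and 1.85 FPKM in Col-0. It was not called.

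**Figure D4:**
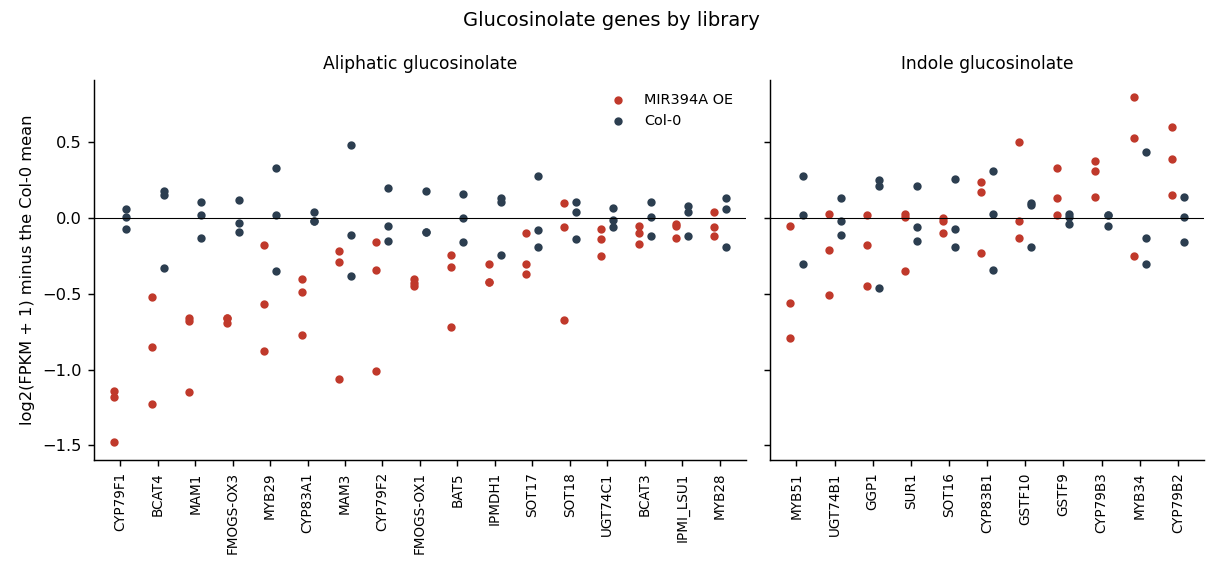
Log2(FPKM + 1) minus the Col-0 mean for each tested aliphatic and indole glucosinolate gene, with 1 point per library, MIR394A OE at the left and Col-0 at the right of each gene. For CYP79F1 all 3 MIR394A OE points lie below -1, while for CYP79B2 and CYP79B3 they lie above 0.

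Endodermal genes, for the Casparian strip and suberin barriers of the root, had 4 of 15 members higher without overlap, beside 2.98% of all genes, 0 lower and none called. CASP5, a scaffold protein of the Casparian strip, measured 14.5, 12.1 and 18.4 FPKM in MIR394A OE, against 4.71, 11.2 and 8.01 FPKM in Col-0. CASP1 measured 54.4, 45.9 and 54.2 FPKM in MIR394A OE, against 25.0, 40.1 and 41.7 FPKM in Col-0. Col-0 replicate 1 was the lowest library for both. The list's median was 0.42, beside -0.01 over all genes, and 0.20 without Col-0 replicate 1. Root hair markers summed to 103 to 280 FPKM in MIR394A OE and 66.7 to 167 FPKM in Col-0, with Col-0 replicate 1 the lowest. Their median of 0.22 turned to -0.03 without that library. The part of root tissue content in these differences was not tested.

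MLP genes encode small proteins of the Bet v 1 fold, some of them reported as proteins whose amount depends on LCR. The values here are of RNA and do not measure protein amount. This list was chosen after its values were seen. MLP28, an abundant member, measured 614, 649 and 561 FPKM in MIR394A OE, against 352, 362 and 408 FPKM in Col-0. Every overexpressor library was above every Col-0 library, and the log2 fold change was 0.70 ± 0.12 with an adjusted p of 0.16. MLP43 measured 113, 98.0 and 113 FPKM in MIR394A OE, against 65.8, 80.8 and 75.4 FPKM in Col-0. MLP328 measured 175, 118 and 119 FPKM in MIR394A OE, against 55.2, 101 and 99.9 FPKM in Col-0. Of 9 members 8 were tested, 3 were higher without overlap, beside 2.98% of all genes, and none was called. MLP423 and MLP168 had negative log2 fold changes, of -0.16 and -0.03. The median of the list was 0.43, and 0.22 without Col-0 replicate 1.

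**Figure D5:**
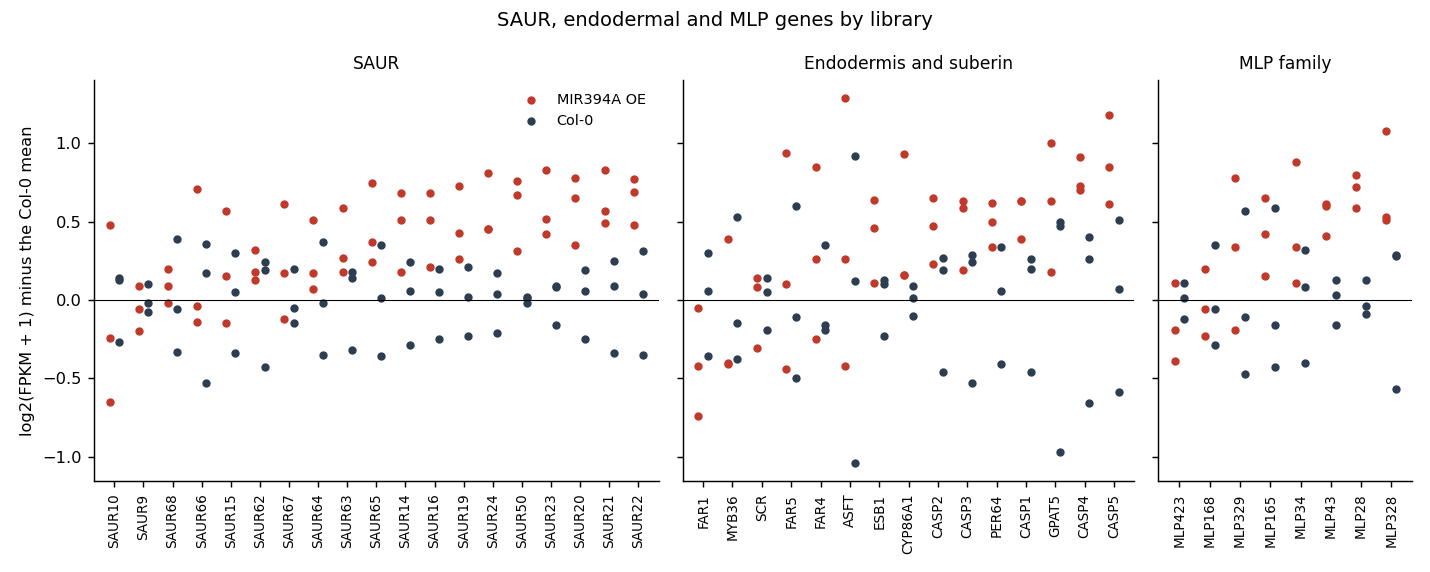
Log2(FPKM + 1) minus the Col-0 mean for each tested SAUR, endodermal and MLP gene, with 1 point per library, MIR394A OE at the left and Col-0 at the right of each gene. The MIR394A OE points of SAUR50 and MLP28 all lie above their Col-0 points, and for CASP4, CASP5 and GPAT5 the lowest point is a Col-0 library.

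FLC, the repressor of flowering, measured 2.32, 3.14 and 1.52 FPKM in MIR394A OE, against 6.48, 5.66 and 4.69 FPKM in Col-0. The groups did not overlap, the log2 fold change was -1.01 ± 0.20, and the adjusted p was 0.46. Its relative MAF5 measured 0.45, 0.55 and 0.37 FPKM in MIR394A OE, against 1.08, 2.07 and 1.5 FPKM in Col-0, with an adjusted p of 1. MAF1, MAF2, MAF3 and MAF4 had log2 fold changes of -0.07 to 0.04. This clade, too, was chosen after its values were seen.

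Immune genes of the salicylate pathway differed among the overexpressor libraries. WRKY33, a defence transcription factor, measured 3.17, 5.10 and 14.6 FPKM in MIR394A OE, against 14.7, 14.3 and 15.3 FPKM in Col-0. WRKY70 measured 0.80, 1.28 and 3.5 FPKM in MIR394A OE, against 3.00, 5.53 and 3.25 FPKM in Col-0. In both, MIR394A OE replicate 3 was within the Col-0 range and the other 2 were below it. Of 22 genes 13 were tested, none was called, none had groups that did not overlap, and the median was -0.33. Without Col-0 replicate 1 the median was -0.15. Without MIR394A OE replicate 3, 7 of the 13 were lower without overlap, beside 2415 of all genes. PR1 and PR2, the classical salicylate markers, were at or near 0.

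Over all genes, 0.0346% were called lower, and 2.80% were lower and 2.98% higher without overlap. A count of 0 in the short lists that follow thus says little. Starch genes, the pathway QQS is named for (qua-quine starch), had a median of -0.09, with 0 of 18 called and 0 without overlap. The same held for 12 flavonoid genes tested, at a median of -0.22, for 15 cold and abscisic acid genes, at 0.00, for 12 jasmonate genes, at 0.04, for 11 clock genes, at -0.09, and for 9 cellulose synthesis genes, at 0.04. The cold and abscisic acid median turned on single libraries: it was -0.22 without Col-0 replicate 1, with 12 of 15 genes negative, and 0.35 without Col-0 replicate 2, with 13 of 15 positive. The flavonoid median kept its sign, between -0.34 and -0.07, when each library of these groups was left out in turn. The jasmonate, clock and cellulose synthesis medians each changed sign when certain single libraries were left out. Groups did not overlap for 1 of 17 ethylene, 1 of 16 iron deficiency, 1 of 14 light signalling and 1 of 12 Aux/IAA genes. Of 10 gibberellin genes tested, 1 was lower and 1 higher without overlap, beside 2.80% and 2.98% of all genes. The gibberellin synthesis enzyme GA3ox1 was one of them, at 7.80, 8.31 and 5.76 FPKM in MIR394A OE, against 11.2, 11.9 and 14.8 FPKM in Col-0, with an adjusted p of 1. The iron uptake transporter IRT1 measured 1.11, 0.99 and 2.40 FPKM in MIR394A OE, against 9.21, 2.13 and 3.56 FPKM in Col-0, and Col-0 replicate 1 was the highest library.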

How the data were processed

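The authors deposited a table of FPKM values per gene and library, per the file headers. The submitters' processing notes list Bowtie2 and HISAT without saying what each did. Which program gave the FPKM, on which build and with or without strand, is not given in the sources used here. Of 27647 loci, 3316 were blank, and 27438 matched TAIR10.1 names. No library pair was identical. Low values fell on steps of whole reads, within 0.1 read for 87.5% to 90.5% of those used.

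Values were tested as log2(FPKM + 1), which understates the change of low genes. One limma model (3.58.1, R 4.3.3; group means, eBayes with trend, 6 residual degrees of freedom) was fitted to all 9 libraries. P-values were two-sided, adjusted by the Benjamini-Hochberg method over 17358 genes and called under 0.05. The code of the fit was checked on simulated data with planted changes. The simulated noise was drawn separately for each gene and library, so it lacks the variation that genes share in these libraries.

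Named genes were all called genes, the 12 largest differences each way without overlap and with a higher group mean of at least 5 FPKM, the 3 smallest p per list, neighbours, and miR394 and brassinosteroid genes. ABCB1, BCAT4, MYB28, PR1 and PR2 were named after their values were seen. Members and lists were chosen with earlier results of these data known. Alternatives covered the trend, scaling, filters, pseudocounts (0.1 and 5), libraries left out, the replicate block, a transcript length trend (loess, span 0.5) and library weights.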

Additional observations from a re-analysis of the deposited data

How the results depend on the processing

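QQS and MRD1 were called under all 19 alternatives, AT1G75945 under 18, ABCB19 under 11, AT3G52870 under 10 and AT5G03090 under 7. Against 6 genes called lower, 3 were called with no filter on low values, 3 in a fit of only the 6 libraries, and 3 to 6 when a library was left out. Library weights called 486 lower and 552 higher, and no other alternative called any gene higher. Genes lower without overlap numbered 303 with the filter at 5 FPKM, 765 to 2415 when a library was left out, and 2913 without both libraries that stand apart. Genes higher without overlap numbered 838 to 1489 when a library was left out and 2565 without both. With fewer libraries, more groups are separate by construction.

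Deviations from the group mean correlated at -0.241, -0.652 and -0.547 between same-numbered libraries of MIR394A OE and Col-0. Between differently numbered libraries they correlated at -0.105 to 0.555. Deviations within a group are tied to each other, so these values cannot show whether the samples were paired. With the replicate block 3 genes were called lower. When a library was left out, the log2 fold change ran from -0.05 to 0.12 for BES1, from -0.20 to 0.03 for BZR1, from -0.12 to 0.17 for DWF4 and from -0.11 to 0.22 for BRI1. For DWF4 it was -0.07 with library weights. The cause was not tested. Of 923 alternative values of 49 named genes, 849 kept their direction and side of the threshold. Most of these genes were not called in the main fit, and staying uncalled counts as keeping the side. The rest were 30 lost calls, all of the 6 called genes, 34 gained calls and 10 changes of direction. Fold changes fell slightly with transcript length (Spearman rho -0.15 across 17235 genes, which are not independent replicates), and 5 genes were called once that trend was removed.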
